A study of Mus musculus with 21 samples.

Results

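The 5 genes described here encode subunits of the phagocyte NADPH oxidase, namely Cybb, Cyba, Ncf1, Ncf4 and Rac2. They were taken by gene symbol from the 37734 genes of the deposited tables, with earlier results of these data known, so counts of members called are descriptions. All 5 passed the filter on low values. Their mRNA was examined by RNAseq in conventional dendritic cells (cDCs) of untreated C57BL/6 mice aged 6 to 8 weeks. Cells of pooled spleens or thymuses were sorted as cDC1 or cDC2 and then by CCR7 and ESAM, 2 surface proteins used to separate immature from mature cells. The 6 groups were both subsets from the spleen, all immature (CCR7- ESAM-), and both subsets from the thymus, each as immature and as mature (CCR7+ ESAM+) cells. There was no mature splenic group, so maturation was compared in the thymus and tissue was compared in immature cells. The cells came from pools of mice, but no source used here ties each sample to a pool of its own, and the methods state that libraries were sequenced in triplicate, so p-values measure the spread between these samples, which may be technical.

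The phagocyte oxidase transfers electrons from NADPH across a membrane to oxygen and so makes superoxide inside the phagosome or outside the cell. Its catalytic core is a membrane heterodimer of gp91phox (NOX2, encoded by Cybb) and p22phox (encoded by Cyba), in which each partner stabilizes the other. On activation, the cytosolic proteins p47phox (Ncf1, the organizer that docks on p22phox) and p40phox (Ncf4, which binds phosphatidylinositol 3-phosphate on phagosomes) join the core together with a GTP-bound Rac protein, Rac2 being the form restricted to blood cells. In dendritic cells the oxidase is known for keeping the phagosome from acidifying, which slows the breakdown of antigen.

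The 21 libraries held between 14266867 and 40119669 gene-assigned reads each. Of the 5 libraries of immature splenic cDC1, 2 differed far less from each other than any other pair did and were counted as 1 sample, which left 20 samples, with 4 in each of the immature cDC1 groups and 3 in every other group. The labels of 2 immature thymic cDC1 libraries (replicates 3 and 4) also share their number, index and lane, but these libraries differed more than any other pair of their group and were kept as 2 samples. The fewest reads behind a value of a subunit were 40, for Cybb in mature thymic cDC1. Values are normalized read counts, which are gene counts scaled for library size by the authors. Levels of different genes are compared only per kilobase of exon. A gene is called changed where the adjusted p of limma's test was below 0.1 and the difference exceeded 2-fold, and differences are on the log2(value + 1) scale. As sums, markers fitted the labels. Summed counts over 6 cDC1 genes were 34040 to 57200 in the immature cDC1 samples against 2200 to 8525 in the immature cDC2 samples. Of these genes, Itgae was higher in immature thymic cDC2 (mean 5655) than in splenic cDC1 (1609), though within each tissue it was higher in immature cDC1. Summed counts over 5 maturation genes were at least 247600 in the mature samples against at most 53380 in the immature samples. In the mature samples the cDC1 sums lay closer together, at 7033 to 8171 in cDC1 and 3373 to 5681 in cDC2. Most of both was Batf3 (means 4998 and 4532). Summed counts over 6 cDC2 genes were 2109 to 3621 in mature cDC1 and 14060 to 18150 in mature cDC2. In sorted bulk samples, fewer cells of a type and less RNA per cell cannot be told apart.

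Cybb, which encodes the catalytic subunit, was the member whose mRNA differed most between groups. It was far higher in cDC2 than in cDC1 in both tissues and at both stages, it was lower in the thymus than in the spleen, and it fell on maturation in cDC2. Its normalized read counts were 1517, 1602, 1601 and 1447 in splenic cDC1 and 18206, 19134 and 17902 in splenic cDC2. In the immature thymic cells they were 291, 272, 134 and 161 in cDC1 and 10091, 10033 and 7743 in cDC2. In the mature thymic cells they were 120, 69 and 257 in cDC1 and 3841, 4083 and 2230 in cDC2. All cDC2 samples lay above all cDC1 samples, and the only neighbours in the order of groups whose samples overlapped were immature and mature thymic cDC1. The mean of splenic cDC2 (18414 ± 642, SD, n = 3) was 124-fold that of mature thymic cDC1 (149 ± 97.4, SD, n = 3).

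**Figure D1:**
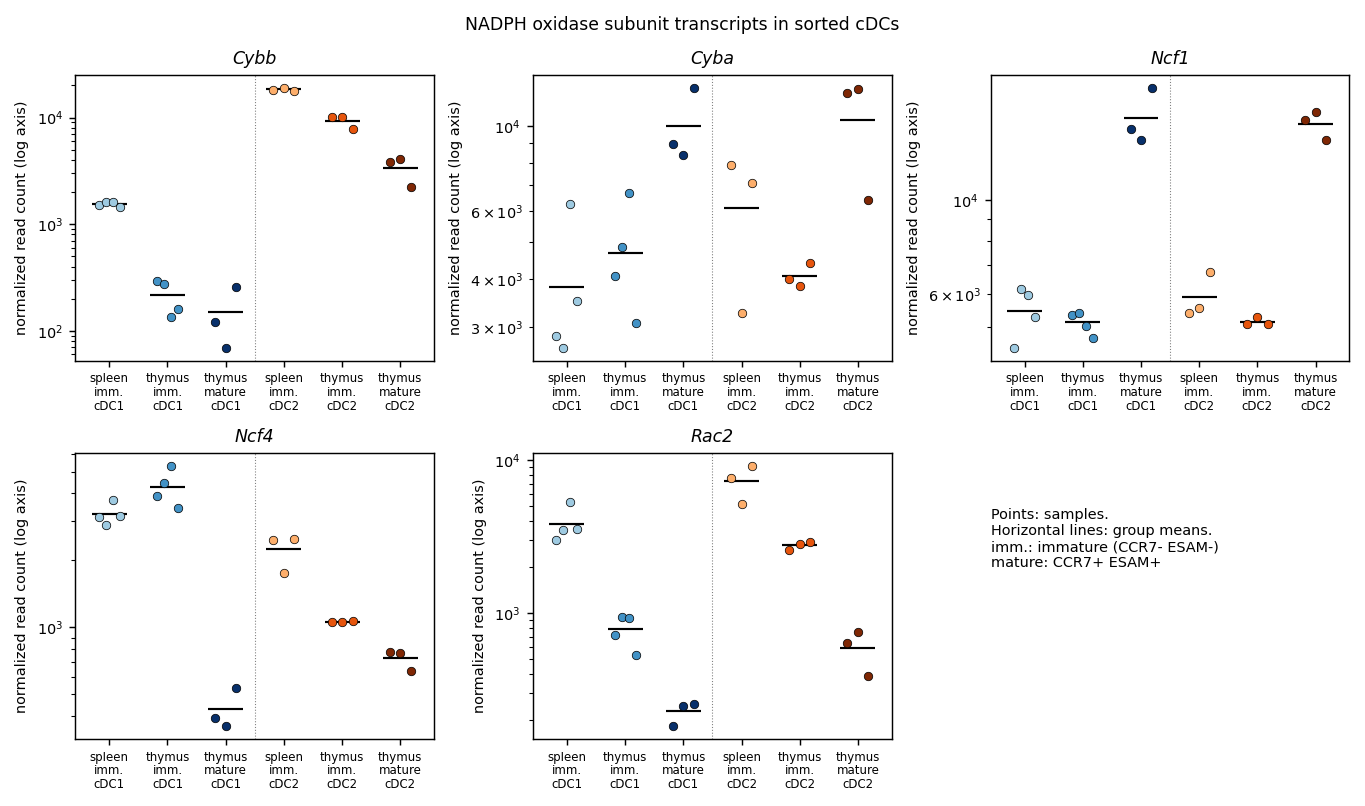
Normalized read counts of the 5 subunit genes on log axes, with 1 point for each sample and a line at each group mean, for splenic and thymic immature and thymic mature cDC1 (left of the dotted line) and cDC2 (right). Cybb is higher in every cDC2 sample than in any cDC1 sample, and Ncf4 and Rac2 are lowest in mature cDC1. The group means of Cyba and Ncf1 are highest in both mature groups. For Cyba the samples overlap, as mature cDC2 replicate 3 (6402) lies below splenic cDC2 replicates 1 and 3 (7926 and 7113).

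On the log2 scale, Cybb was higher in cDC2 than in cDC1 by 3.58 ± 0.32 (SE) in the spleen (adjusted p = 4.1e-08), by 5.50 ± 0.32 in immature thymic cells (adjusted p = 1.1e-10) and by 4.65 ± 0.35 in mature thymic cells (adjusted p = 1.26e-08). Between tissues, the level in immature thymic cDC1 was 7.54-fold below that of splenic cDC1 (log2 difference -2.91 ± 0.30, adjusted p = 6.74e-07). In cDC2 the same comparison gave -0.997 ± 0.35 (adjusted p = 0.0473), a difference of 1.996-fold that stopped just short of the fold threshold; it passed it in 6 of the 19 alternative settings. The tissue difference was larger in cDC1 than in cDC2, by 1.92 ± 0.46 on the log2 scale (adjusted p = 0.0159). On maturation Cybb fell 2.82-fold in cDC2 (-1.50 ± 0.35, adjusted p = 0.00132). In cDC1 the difference was -0.65 ± 0.32 (adjusted p = 0.0918), under the fold threshold, and with each sample left out it ranged from -0.21 without mature cDC1 replicate 2 to -1.15, where it was called, without mature cDC1 replicate 3. The maturation effects in the 2 subsets differed by -0.84 (95% interval -1.83 to 0.15, adjusted p = 0.27), which did not pass the test, although it was called at -1.28 without mature cDC1 replicate 2.

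Levels of markers of other cells moved with some of these Cybb values. Within immature thymic cDC1, the 2 samples with the higher Cybb (291 and 272) had summed counts over 6 cDC2 marker genes of 876 and 844, against 495 and 680 in the samples with 134 and 161. In mature thymic cDC1 the same sums were 2564, 2109 and 3621 beside Cybb values of 120, 69 and 257. Most of the sum there was Irf4, with means of 2358 in mature and 188.7 in immature thymic cDC1. Sirpa was also higher in the mature cells (391.9 against 233.7). Itgam, Clec4a4, Mgl2 and Cd209a were lower in them, with means for Cd209a of 2.71 against 93.72. In splenic cDC1 the sums over the 6 cDC2 marker genes were 2375 to 3414. The sum, like Cybb, was thus lower in immature thymic than in splenic cDC1. Most of the splenic sum was Irf4 (mean 1246, against 188.7 in immature thymic cDC1) and Sirpa (1092 against 233.7). Itgam, Clec4a4 and Cd209a were also lower in immature thymic cDC1. Mgl2 went the other way, with means of 5.72 in splenic and 180.5 in immature thymic cDC1. Summed counts over 11 macrophage and monocyte genes were 502 to 636 in splenic cDC1, 5760 to 6986 in splenic cDC2, 575 to 932 in immature thymic cDC1, 7915 to 10910 in immature thymic cDC2 and 500 to 1170 in mature thymic cDC1. In mature thymic cDC2 the sums were 14380, 15340 and 2719, and the sample with 2719 also had the lowest Cybb (2230). Relative to its group mean on the log2 scale, that sample was low in all 5 subunits (Cybb -0.55, Cyba -0.63, Ncf1 -0.13, Ncf4 -0.19 and Rac2 -0.56). The macrophage and monocyte sums did not rise with Cybb in the other cDC2 groups. They were 6734, 5760 and 6986 in splenic cDC2, beside Cybb values of 18206, 19134 and 17902. In immature thymic cDC2 they were 10910, 7915 and 10690, beside 10091, 10033 and 7743. The most abundant genes of that list were the complement genes C1qa and C1qb in thymic cDC2 (means of 2289 and 2539 in immature and 3058 and 3354 in mature cells) and the F4/80 gene Adgre1, listed in the files as Emr1, in splenic cDC2 (4534), while the macrophage receptor gene Vsig4 had at most 3 reads in every library. The part of these cells in the Cybb values was not tested. Over 10 neutrophil genes the sums were at most 50.3 in all groups but immature thymic cDC2, where they were 664 to 910 and 6 of the 10 genes had at most 3 reads, most of the sum being Cxcr2 (mean 789).

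Cyba and Ncf1, which encode the membrane partner of gp91phox and the organizer subunit, followed another pattern. Both rose on maturation in both subsets, and neither was called between cDC1 and cDC2 or between the tissues. Ncf1 counts were 4474, 6159, 5952 and 5294 in splenic cDC1, 5395, 5545 and 6746 in splenic cDC2, 5359, 5415, 5045 and 4719 in immature thymic cDC1 and 5081, 5300 and 5087 in immature thymic cDC2. They were 14657, 13814 and 18403 in mature cDC1 and 15447, 16134 and 13811 in mature cDC2. No mature sample overlapped an immature one, while the 4 immature groups overlapped in their ranges, apart from splenic against immature thymic cDC2. The rise was 3.02-fold in cDC1 (log2 difference 1.60 ± 0.14, adjusted p = 3.39e-09) and 2.93-fold in cDC2 (1.55 ± 0.15, adjusted p = 3.11e-08). The difference in Ncf1 between cDC2 and cDC1 was bounded by 95% intervals of -0.17 to 0.40 in the spleen, -0.28 to 0.29 in immature thymic cells and -0.34 to 0.27 in mature cells, so differences of 2-fold lay outside all 3. Summed counts over 6 T cell genes were also higher in the mature groups, at 678 to 2065, than in the immature thymic groups, at 140 to 254, and their part in the rises of Ncf1 and Cyba was not tested.

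Cyba counts varied more within groups. They were 2847, 2656, 6267 and 3519 in splenic cDC1, 7926, 3271 and 7113 in splenic cDC2, 4073, 4852, 6705 and 3079 in immature thymic cDC1 and 4015, 3831 and 4403 in immature thymic cDC2. Mature cDC1 had 8981, 8398 and 12563, and mature cDC2 had 12167, 12478 and 6402. In the thymus every mature sample was above the immature samples of its subset. Cyba rose 2.19-fold in cDC1 (1.13 ± 0.33, adjusted p = 0.00602) and 2.43-fold in cDC2 (1.28 ± 0.35, adjusted p = 0.00512). The call in cDC1 was lost at a difference of 0.95 without mature cDC1 replicate 3 or without immature thymic cDC1 replicate 4. Between thymic and splenic immature cells, the Cyba difference was 0.32 in cDC1 (95% interval -0.32 to 0.96). In cDC2 it was -0.48 (95% interval -1.22 to 0.25), so a difference of 2-fold was not excluded there. In the spleen the difference between subsets was 0.66 (95% interval -0.03 to 1.35, adjusted p = 0.168), and it was called at 1.06 without splenic cDC2 replicate 2, the sample with 3271. Relative to their group means on the log2 scale, that sample was low in Cyba (-0.80), Rac2 (-0.47) and Ncf4 (-0.33), and splenic cDC1 replicate 3 was high in the same genes (0.80, 0.50 and 0.22).

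Ncf4, which encodes the phosphoinositide-binding p40phox, changed differently in the 2 subsets. It had 3128, 2902, 3745 and 3174 counts in splenic cDC1, 2478, 1756 and 2493 in splenic cDC2, 3888, 4457, 5326 and 3454 in immature thymic cDC1 and 1061, 1053 and 1067 in immature thymic cDC2. It had 393, 360 and 532 in mature cDC1 and 777, 769 and 635 in mature cDC2. Ncf4 was thus higher in cDC1 before maturation and lower in cDC1 after it, with no overlap between the subsets at either stage in the thymus. It fell 9.98-fold on maturation of cDC1 (-3.32 ± 0.17, adjusted p = 1.45e-12). In cDC2 the difference was 1.46-fold (-0.55 ± 0.18, adjusted p = 0.0168), under the fold threshold, and the 2 maturation effects differed by 2.77 ± 0.25 on the log2 scale (adjusted p = 3.53e-07). Between tissues Ncf4 was lower in thymic than in splenic cDC2 (-1.06 ± 0.18, adjusted p = 2.23e-04), although the fold fell under the threshold, at -0.98, without splenic cDC2 replicate 1 or replicate 3. In cDC1 the tissue difference was 0.39 ± 0.16 (adjusted p = 0.127), and the 2 tissue differences differed by -1.45 ± 0.24 (adjusted p = 6.85e-04). In immature thymic cells Ncf4 was 3.98-fold lower in cDC2 than in cDC1 (-1.99 ± 0.17, adjusted p = 1.92e-08). In the spleen (-0.54, adjusted p = 0.0226) and in mature cells (0.78, adjusted p = 0.00369) the subset differences were under 2-fold. The mature comparison has a median difference over all genes tested of 0.14, or 0.16 after rescaling by the trimmed mean of M-values (TMM), which is to be set against the value of Ncf4 there.

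Rac2, the GTPase subunit, was lower in thymic than in splenic immature cells in both subsets. It was also lower in mature than in immature thymic cells in both. Its counts were 3030, 3486, 5314 and 3577 in splenic cDC1, 721, 949, 936 and 531 in immature thymic cDC1 and 182, 248 and 253 in mature cDC1. In cDC2 they were 7677, 5174 and 9223 in the spleen, 2596, 2854 and 2919 in immature thymic cells and 641, 753 and 387 in mature cells. Within each subset the 3 groups did not overlap. Thymic immature cells were 4.92-fold below splenic ones in cDC1 (-2.30 ± 0.23, adjusted p = 5.43e-07) and 2.57-fold below them in cDC2 (-1.36 ± 0.27, adjusted p = 9.84e-04). Maturation lowered Rac2 3.38-fold in cDC1 (-1.76 ± 0.25, adjusted p = 4.87e-06) and 4.87-fold in cDC2 (-2.28 ± 0.27, adjusted p = 6.62e-07). The tissue effects of the 2 subsets differed by 0.94 (95% interval 0.20 to 1.68, adjusted p = 0.177) and the maturation effects by -0.53 (95% interval -1.30 to 0.24, adjusted p = 0.386), neither of which passed the test. Rac2 was higher in cDC2 than in cDC1 in immature thymic cells (1.87 ± 0.25, adjusted p = 9.31e-06) and in mature cells (1.34 ± 0.27, adjusted p = 0.00105). In the spleen the difference was 0.93 ± 0.25 (adjusted p = 0.00912), just under 2-fold, and it was called at 1.16 without splenic cDC2 replicate 2 and at 1.09 without splenic cDC1 replicate 3. Summed counts over 6 B cell genes, another cell type with abundant Rac2, were 3542 to 8323 in the immature groups and 927 to 1683 in the mature groups. The part of B cells in the Rac2 and Ncf4 values was not tested.

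**Figure D2:**
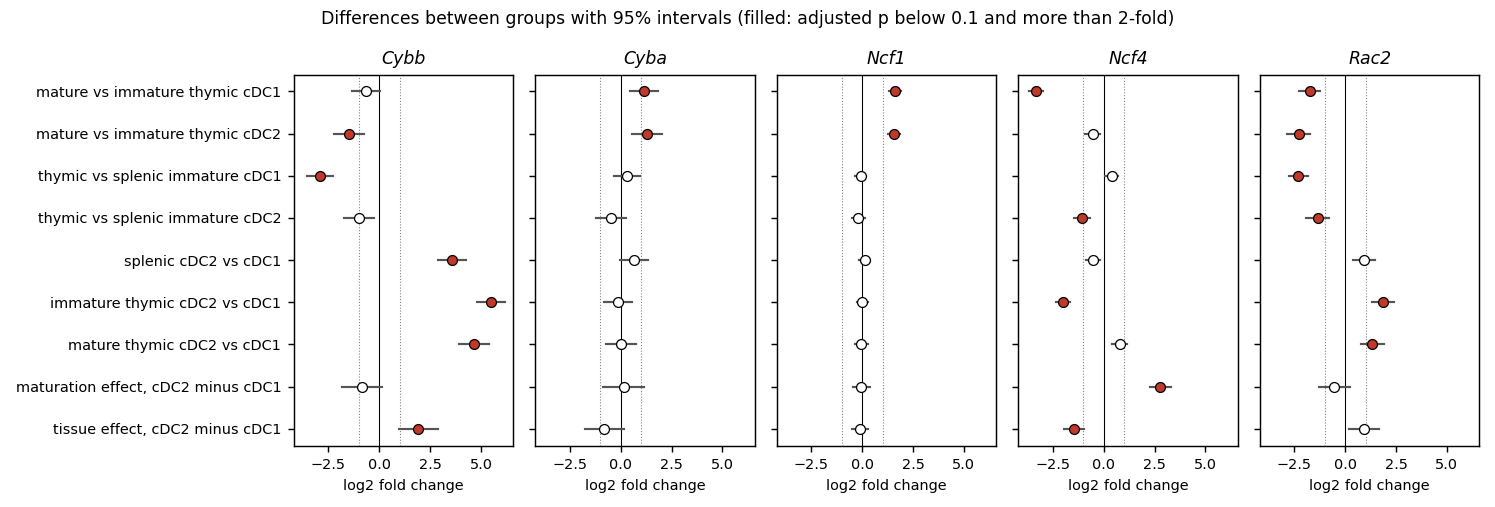
Log2 fold changes (horizontal axes) of the 5 subunit genes in the 7 comparisons between groups and in the 2 differences between effects, with 95% intervals from limma as bars. Filled points passed an adjusted p below 0.1 and a 2-fold difference, and dotted lines mark 2-fold. Ncf1 and Cyba are filled in the maturation comparisons and in no other, whereas Cybb is filled in all 3 comparisons of cDC2 with cDC1.

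Counted by comparison, 4 of the 5 genes were called on maturation of cDC1 (Cyba and Ncf1 higher, Ncf4 and Rac2 lower), where 45.7% of all 14970 genes tested were called. On maturation of cDC2 4 of 5 were called (Cyba and Ncf1 higher, Cybb and Rac2 lower), beside 35.6% of all genes. Between thymic and splenic immature cells 2 of 5 were called in cDC1 (Cybb and Rac2, both lower), beside 8.77% of all genes, and 2 of 5 in cDC2 (Ncf4 and Rac2, both lower), beside 14.2%. Between cDC2 and cDC1, 1 was called in the spleen (16.6% of all genes), 3 in immature thymic cells (16.4%) and 2 in mature thymic cells (18.9%). The maturation effect differed between the subsets for 1 gene, Ncf4, beside 13.6% of all genes, and the tissue effect for 2, Cybb and Ncf4, beside 4.98%. The libraries were run in 2 flow-cell lanes and both mature groups in lane 8 only. Within lane 8, the maturation differences in cDC1 were 1.08 for Cyba, 1.62 for Ncf1, -3.36 for Ncf4 and -1.78 for Rac2, and those in cDC2 were -1.43 for Cybb, 1.27 for Cyba, 1.54 for Ncf1 and -2.33 for Rac2. The called tissue and subset differences had the same direction in both lanes wherever both lanes held the groups. With lane 8 alone, the difference of Cybb between the 2 tissue effects was 2.05 and no longer passed the test (adjusted p = 0.349), with adjusted p-values of 9.11e-04 to 0.349 over the 27 alternatives.

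The subunits moved in opposite directions, and their proportions differed between groups. Per kilobase of exon, Cyba was the most abundant of the 5 genes in every group, with means of 3679 to 9961 normalized counts per kilobase. Cybb mRNA per kilobase was 63.6% ± 35.6 (SD, n = 3) of that of Cyba in splenic cDC2 and 41.1% ± 8.40 in immature thymic cDC2, and 5.91% ± 0.296 in mature cDC2. In cDC1 the same proportion was 8.06% ± 2.73 in the spleen (n = 4), 0.894% ± 0.387 in immature thymic cells (n = 4) and 0.251% ± 0.110 in mature cells (n = 3). The lowest sample of immature cDC2 (31.5%) was thus above the highest sample of mature cDC2 (6.23%), and both were above the highest thymic cDC1 sample (1.28%). Ncf4 per kilobase was 109% ± 17.3 of Ncf1 in splenic cDC1 and 151% ± 28.0 in immature thymic cDC1, and 4.95% ± 0.269 in mature cDC1. In cDC2 it was 69.2% ± 13.1 in the spleen, 37.3% ± 1.11 in immature thymic cells and 8.70% ± 0.395 in mature cells, so that p40phox mRNA was scarce beside p47phox mRNA in all 6 mature samples.

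**Figure D3:**
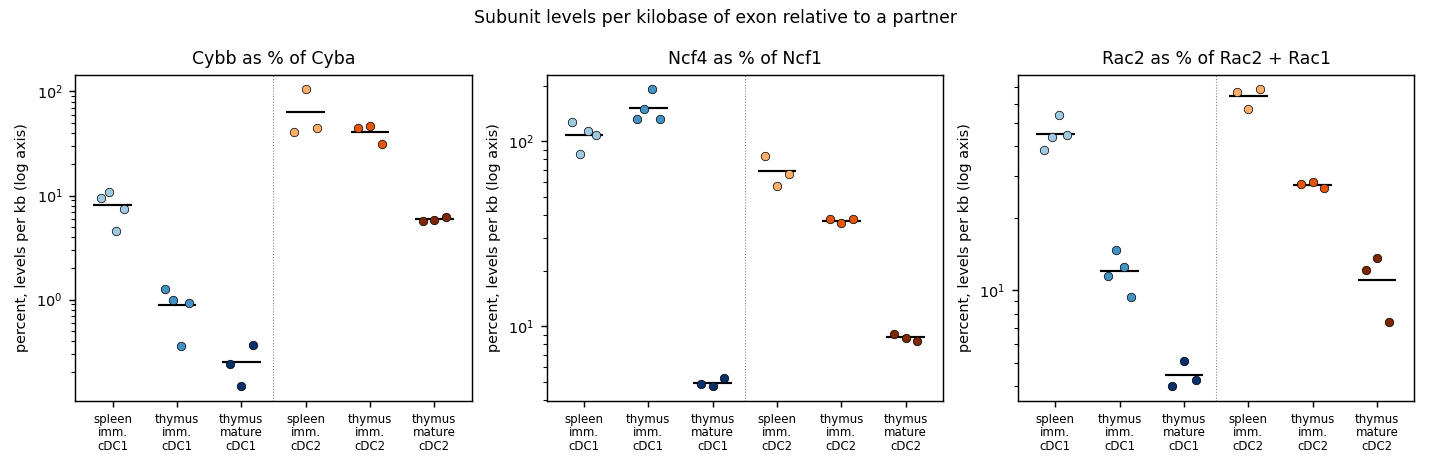
Level per kilobase of Cybb as a percentage of Cyba, of Ncf4 as a percentage of Ncf1, and of Rac2 as a percentage of Rac2 plus Rac1, on log axes, with 1 point per sample and a line at each group mean. The proportion of Cybb to Cyba spans 0.148% to 105% over the samples, and in every panel the mature samples of a subset lie below its immature samples, except that 1 immature thymic cDC1 sample is at 0.358% for Cybb, within the mature range.

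Partners of the subunits, from a list of 11 other oxidase components and assembly factors, were examined next. Rac1, the widely expressed form of Rac, had means of 5738 to 10614 over the 6 groups and was called in none of the 9 comparisons. Rac2 therefore made up 64.3% ± 6.18 of Rac2 and Rac1 mRNA per kilobase in splenic cDC2 and 45.0% ± 6.43 in splenic cDC1, and 11.1% ± 3.28 and 4.42% ± 0.562 in mature thymic cDC2 and cDC1. Exons of Rac1 overlap those of Daglb on the opposite strand over 2309 bases, and whether the counting used strand is not given in the sources used here, so the Rac1 share is uncertain to that extent. Cybc1, a chaperone of the gp91phox-p22phox heterodimer listed in the files as BC017643, had means of 1237 to 1972 and was called in no comparison.

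Hvcn1 encodes a proton channel that offsets the charge moved by the oxidase. Its mean was 146 ± 67.1 in splenic cDC1 against 1039 ± 106 in immature thymic cDC1 (2.92, adjusted p = 3.45e-08), and 995 ± 197 in splenic cDC2 against 2114 ± 215 in immature thymic cDC2 (1.10, adjusted p = 0.00752). The call in cDC2 was lost at 0.98 without splenic cDC2 replicate 2 and at 0.75 with lane 8 alone, and the GC and length correction brought it to the fold threshold, where it was not called. The tissue effects of the subsets differed by -1.82 (adjusted p = 0.0044), a call lost with lane 8 alone (-1.96, adjusted p = 0.15, the highest over the alternatives, against 9.99e-06, the lowest). In the spleen Hvcn1 was higher in cDC2 than in cDC1 (2.84, adjusted p = 4.98e-08). Hvcn1 was thus higher in thymic than in splenic immature cells, a comparison in which Cybb was lower or did not pass the threshold. On maturation, 3 of the 11 genes were called higher in cDC1 and 2 in cDC2 (45.7% and 35.6% of all genes were called in either direction), with Rhog, a small GTPase, at 1.99 and 1.61 and Rac3 at 2.35 and 1.69 from low counts. Arhgdib, which holds small GTPases in the cytosol, was among the 1 and 2 genes called lower (-1.26 and -1.69). The median over the list was 0.25 in cDC1 and -0.08 in cDC2, beside -0.04 and 0.04 over all genes tested. The Rac3 call in cDC2 was lost without immature thymic cDC2 replicate 2.

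**Figure D4:**
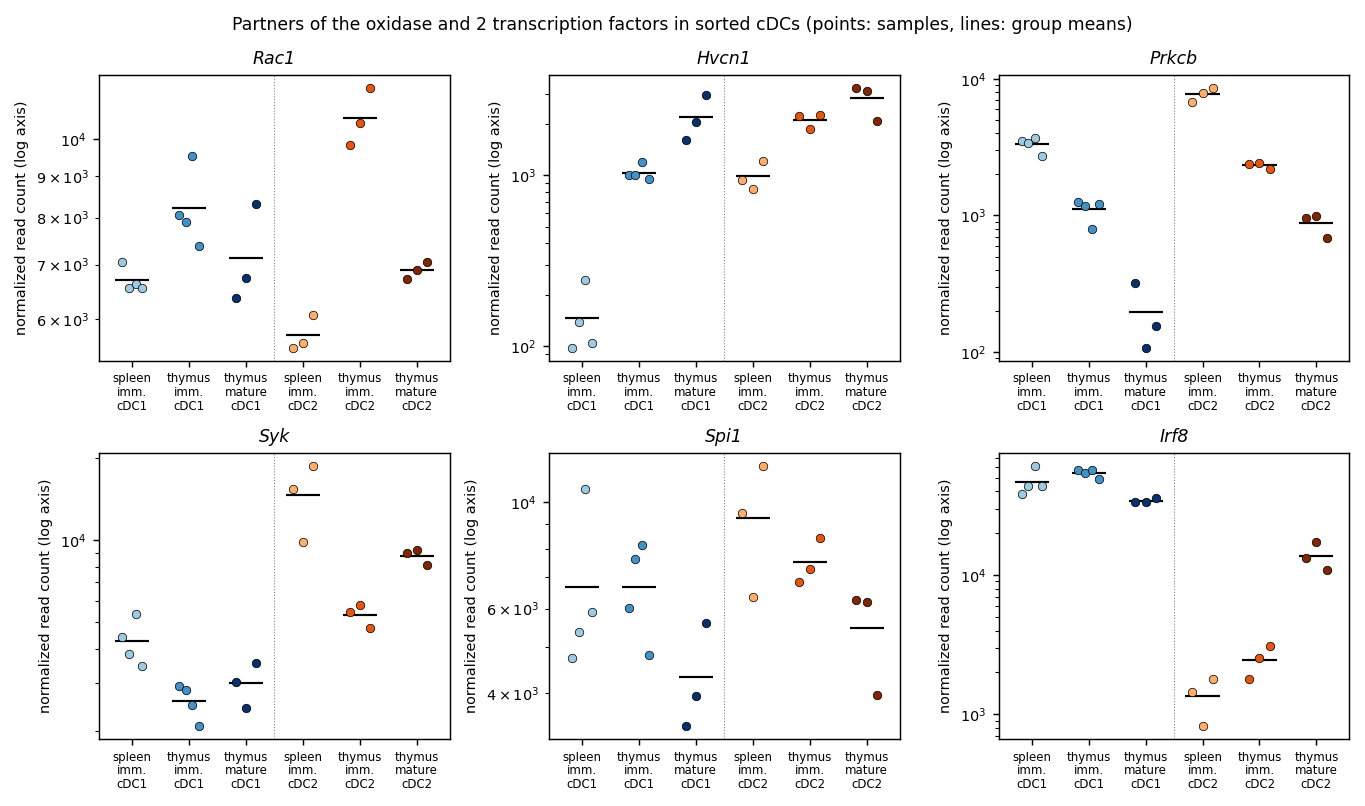
Normalized read counts on log axes of Rac1, Hvcn1, Prkcb, Syk, Spi1 and Irf8, with 1 point per sample and a line at each group mean. Irf8 is lower in every cDC2 sample than in any cDC1 sample. In both subsets Prkcb is lower in immature thymic than in splenic cells, and lower in mature than in immature thymic cells.

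Other genes of the pathway were counted by list. Of 13 exchange factors and GTPase-activating proteins for Rac, 3 were called higher and 6 lower on maturation in each subset, beside 45.7% of all genes called in cDC1 and 35.6% in cDC2, with list medians of -0.64 in cDC1 and -0.15 in cDC2. The Rac GTPase-activating protein Arhgap15 had the largest fall of the list (-4.93 in cDC1 and -4.04 in cDC2) and the exchange factor Prex1 the largest rise (1.68 and 1.74 on the log2 scale). Of 14 kinases and lipid enzymes that act on the oxidase, 0 were higher and 5 lower on maturation of cDC1, and 2 higher and 5 lower in cDC2, beside the same 45.7% and 35.6% of all genes called. The p38 kinase Mapk14 fell (-3.87 in cDC1 and -2.88 in cDC2), as did the kinase Pak1 (-3.14 and -2.98) and the p47phox kinase Prkcb (-2.63 and -1.43). Prkcb was also lower in thymic than in splenic immature cells (-1.60 in cDC1, -1.73 in cDC2, adjusted p = 6.12e-05 and 1.05e-04). In the comparison of splenic cDC2 with cDC1, 6 of the 14 were higher and 0 lower, among them Syk (1.76, adjusted p = 8.01e-07) and Prkcb (1.22, adjusted p = 0.00109), beside 16.6% of all genes called, with a list median of 0.92 beside 0.02 over all genes.

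Of 25 genes for superoxide and peroxide handling, 9 were called higher and 4 lower on maturation of cDC1, and 7 higher and 3 lower in cDC2, beside 45.7% and 35.6% of all genes called. Sod3, the secreted superoxide dismutase, had means of 1.18 and 70.1 counts in immature and mature thymic cDC1 and of 5.15 and 273 in cDC2. These were the largest rises of the list on the log2(value + 1) scale (5.23 and 5.75), from near 0. Their size depended on the setting, at 3.05 to 7.11 in cDC1 and 4.43 to 6.39 in cDC2 over the alternatives. The peroxiredoxin Prdx6 fell from 3563 to 606 in cDC1 and from 4827 to 1241 in cDC2 (-2.57 and -1.96). The cystine transporter subunit Slc7a11 was the gene of this list most raised in cDC2 over cDC1, by 3.71 in the spleen, 5.41 in immature thymic cells and 3.57 in mature cells. Of 9 genes for other NOX and DUOX enzymes and their partners, 1 passed the filter on low values. It was Noxo1, the p47phox homologue that serves NOX1, which rose from 40.5 to 215 in cDC1 and from 44.4 to 265 in cDC2 (2.59 and 2.57, adjusted p = 2.22e-05 and 8.28e-05). Of 7 tested genes for recruitment of the oxidase to the phagosome, Rubcn, which stabilizes the p22phox-containing complex in LC3-associated phagocytosis and is listed in the files as 1700021K19Rik, rose on maturation in both subsets (2.08 and 2.75), and Siglecg, an inhibitory lectin receptor, was higher in splenic cDC2 than in cDC1 (1.97, adjusted p = 2.3e-09). Over the 7 genes, 3 were higher and 1 lower on maturation of cDC1, and 2 higher and 1 lower in cDC2, beside 45.7% and 35.6% of all genes.

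The transcription factors known at the Cybb and Ncf genes did not follow one pattern. Spi1, which encodes PU.1, had means of 4321 to 9251 over the 6 groups, and its differences between cDC2 and cDC1 were 0.50 in the spleen (adjusted p = 0.21) and 0.20 in immature thymic cells (adjusted p = 0.712). Irf8 was lower in cDC2 than in cDC1 by 5.15 in the spleen (log2 difference -5.15, adjusted p = 1.47e-12) and by 4.49 in immature thymic cells (-4.49, adjusted p = 1.51e-11), and its maturation effects differed by 3.15 (adjusted p = 3.62e-06). Irf1, an interferon-inducible factor, had the largest rise on maturation (5.04 in cDC1 and 3.00 in cDC2). Of the 10 factors tested, 3 were higher and 2 lower on maturation of cDC1, and 4 higher and 1 lower in cDC2, beside 45.7% and 35.6% of all genes. Promoter sequences from RefSeq, of build GRCm38.p6 and 300 bases long around the start, were held for 3 of the 5 genes. They are shown because Cyba and Ncf1 moved together while Cybb did not. All 3 are on the minus strand, at chrX:9469275-9469574 for Cybb, chr8:122432891-122433190 for Cyba and chr5:134229576-134229875 for Ncf1, and are printed in the direction of transcription. The Cybb window lies inside the gene as annotated in GENCODE M21 (chrX:9435252-9487771), away from its start in that annotation. The Cyba and Ncf1 windows span the starts of their genes there. Capitals mark matches on either strand to 4 motifs, a PU.1 core (GAGGAA), an ETS-IRF composite (GGAA and GAAA with 2 bases between them), an interferon-stimulated response element (GAAA and GAAA with 2 bases between them) and a kappa-B motif (GGGA and TTTCC with 1 base between them).
Cybb: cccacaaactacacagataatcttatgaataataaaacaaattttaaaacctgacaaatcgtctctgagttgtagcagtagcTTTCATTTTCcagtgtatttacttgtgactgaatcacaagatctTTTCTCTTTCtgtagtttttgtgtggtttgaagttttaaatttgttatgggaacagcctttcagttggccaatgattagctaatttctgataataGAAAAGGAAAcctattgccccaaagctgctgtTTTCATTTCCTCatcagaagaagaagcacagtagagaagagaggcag
Cyba: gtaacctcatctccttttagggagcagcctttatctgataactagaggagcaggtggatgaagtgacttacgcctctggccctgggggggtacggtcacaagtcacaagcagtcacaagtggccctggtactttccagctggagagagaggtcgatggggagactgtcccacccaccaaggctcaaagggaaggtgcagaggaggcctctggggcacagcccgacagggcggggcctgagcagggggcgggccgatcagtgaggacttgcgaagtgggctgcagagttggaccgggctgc
Ncf1: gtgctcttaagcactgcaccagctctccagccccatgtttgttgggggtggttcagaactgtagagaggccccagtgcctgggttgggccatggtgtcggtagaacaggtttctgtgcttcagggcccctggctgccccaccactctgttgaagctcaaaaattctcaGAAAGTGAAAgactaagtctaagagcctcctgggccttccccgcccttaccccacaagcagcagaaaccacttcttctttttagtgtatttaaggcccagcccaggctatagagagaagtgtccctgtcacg
The Cybb window held 1 PU.1 core, which overlapped 1 ETS-IRF composite close to the start, and 3 matches to the response element. The Ncf1 window held 1 match to the response element and the Cyba window held no match to the 4 motifs. Of 32851 RefSeq promoters of the same length, 28.3% held the PU.1 core, 2.72% the composite, 3.44% the response element and 0.411% the kappa-B motif. A match describes letters in the window and not binding.

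In mouse build mm10 with the GENCODE M21 annotation, Cybb lies at chrX:9435252-9487771, Cyba at chr8:122424776-122432930, Ncf1 at chr5:134220053-134229625 and Rac2 at chr15:78559167-78572783, all on the minus strand, and Ncf4 lies at chr15:78244801-78262580 on the plus strand, and all are protein-coding genes counted over their exons. Exons of Ncf1 share 408 bases with Gtf2ird2 on the opposite strand, whose mean level was 158 to 266 and was lower in the mature groups, where Ncf1 was higher. None of the other 4 genes shared exon bases with another gene, and 0 of the 50-base pieces of the longest transcripts of the 5 genes occurred in transcripts of another gene.

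Over the 20 samples, the genes whose log2 levels correlated best with each subunit were different for the 5, among 10219 genes compared. For Cybb they were the adhesion receptor Emr4 (Pearson r = 0.985), Cd300lb (0.975) and Sirpb1b (0.975), and for Rac2 they were H2-Oa (0.980), Cd7 (0.964) and Abcg3 (0.958). For Ncf1 they were Prr14 (0.991), Zc3h7b (0.988) and Tmem127 (0.987), and for Cyba the proton pump subunit Atp6v0b (0.960), the histone methyltransferase gene Ehmt2 (0.949) and Hmga1 (0.940). For Ncf4 they were Cbx6 (0.962), Rinl (0.956) and Ipcef1 (0.955). Among the members themselves, r was 0.81 for Cyba with Ncf1, 0.76 for Cybb with Rac2 and -0.80 for Ncf1 with Ncf4. The values of 1 sample share a library and its depth, and the 20 points fall into the 6 sorted groups, so these coefficients are given as a description.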

How the data were processed

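Total RNA of sorted mouse cDCs was made into stranded mRNA libraries and sequenced. The authors used Cutadapt for trimming, STAR 2.6 for alignment to mm10 and HTSeq for counting per gene, and the deposited signal values are these counts divided by a DESeq2 1.24.0 size factor (tools and versions per the labels and methods). Whole reads were recovered from the value steps, within a tolerance of 0.01 read, and used in count tests. Values of the 20 samples were tested as log2(value + 1) with limma 3.58.1 (R 4.3.3) in 1 fit of all 6 groups, over the 14970 genes that reached 10 in 3 or more samples, with Benjamini-Hochberg adjustment over all genes. Alternatives used edgeR 4.0.16 and DESeq2 1.42.0 on recovered reads, TMM scaling, other pseudocounts and filters, lane, library number and each sample left out. A correction for GC content and exon length and a second transcript length were added after seeing the data. Scripts were tested on simulated data. The members and lists were chosen with earlier results of these data known. Named were the members, their direct partners, list genes with the largest changes and the 3 genes most correlated with each member. Some genes of the lists are not reported here.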

Additional observations from a re-analysis of the deposited data

Results flagged for a closer look

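Effects of the same comparison differed between cDC1 and cDC2, by a test of the difference itself in limma, for 3 effects of the subunits. The maturation effect on Ncf4 was higher in cDC2 than in cDC1 by 2.77 (adjusted p = 3.53e-07), with Ncf4 lower in all 3 mature cDC1 samples than in all 4 immature ones and lower in all 3 mature cDC2 samples than in all 3 immature ones. The thymus minus spleen difference of Cybb was less negative in cDC2, by 1.92 (adjusted p = 0.0159), a call lost with lane 8 alone (2.05), and that of Ncf4 was lower in cDC2, by -1.45 (adjusted p = 6.85e-04).

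Among the partners, the maturation effect on Irf8 was higher in cDC2 by 3.15 (adjusted p = 3.62e-06) and the tissue effect on Hvcn1 was lower in cDC2 by -1.82 (adjusted p = 0.0044), a call also lost with lane 8 alone (-1.96). In the 2 groups of 4 samples, no value of a subunit passed Dixon's 95% critical value for an outlier, the high Cyba value of splenic cDC1 replicate 3 (6267) included.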

How the results depend on the processing

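Of the 45 effects of the subunits, 30 kept their direction and their side of the threshold in every alternative other than those that change the threshold itself. With no fold-change threshold 6 more effects were called, and with an adjusted p below 0.05 no call was lost. The number of subunits called between splenic cDC2 and cDC1 was 3 in place of 1 with no fold-change threshold and 1 to 3 with each sample left out, that of the maturation difference 1 to 2 with each sample left out, and that of the tissue difference 1 in place of 2 in lane 8 only. The reversed values belonged to effects near 0 that were not called: Cyba between tissues in cDC1 (-0.016 in lane 8 only), Ncf1 between immature thymic subsets (-0.011 with edgeR, -0.010 with TMM, -0.016 with 1 sample per library number, -0.0083 with the fixed replicate block, -0.032 to 0.034 with each sample left out), and Cyba between mature subsets (-0.037 with the random replicate block, -0.22 with the GC and length correction, -0.15 to 0.33 with each sample left out). With each sample left out, Cyba between immature thymic subsets gave -0.32 to 0.052, Ncf1 between mature subsets -0.12 to 0.086, and the maturation difference -0.039 to 0.47 for Cyba (-0.12 with the GC and length correction) and -0.13 to 0.078 for Ncf1.

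The leading library numbers in the labels were shared by 3 pairs of splenic and 3 of immature thymic samples of the 2 subsets. The other comparisons shared at most 1 number, too few for a fixed block or a check of the pairing. The correlations of same-numbered samples were -0.047, 0.33 and 0.45 in the spleen and -0.10, 0.21 and 0.16 in the thymus, not above 0.1 in every pair, so pairing was not taken as shown. The fixed replicate block left 1 and 3 subunits called in these comparisons, and all genes called went from 2489 to 2738 and from 2456 to 2472. The random replicate block, with a correlation of 0.155, changed no call of a subunit.

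Over all genes, lane 8 only gave 1659 calls in place of 2489 between splenic subsets, 844 in place of 1313 between tissues in cDC1 and 225 in place of 746 for the tissue difference, with fewer samples in each. A fit of the mature groups alone gave 1704 in place of 2834. With no fold-change threshold 4394, 3892, 4535, 2308 and 3965 genes were called, in place of 2489, 2456, 2834, 1313 and 2121, in the 3 subset and 2 tissue comparisons. Low counts of Cybb in mature thymic cDC1 limit the precision of its fold changes. Cyba had the highest level per kilobase of the 5 genes in every group also with TMM scaling and with the length of the longest transcript.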
